A study of Homo sapiens with 6 samples.

Results

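The nuclear genes of the respiratory chain and of ATP synthase were followed, complex by complex, in MDA-MB-231 cells with MYOSIN10 shRNA and with scramble shRNA. Members were taken by symbol, as genes whose platform symbol starts with NDUFA, NDUFB, NDUFC, NDUFS, NDUFV, UQCR, CYC1, COX4I, COX5, COX6, COX7, COX8 or ATP5, or is SDHA to SDHD. This gave 91 of the 19775 genes with a single listed symbol, read by 174 of 54675 probe sets. Of the 91, 76 are subunits, 8 are NDUFAF assembly factors of complex I, COX7A2L and ATP5IF1 are a supercomplex factor and an inhibitor, and 5 are noncoding or pseudogene entries that share only the prefix. A few further subunit symbols are listed only on probe sets with several symbols, among them NDUFS5, NDUFS8, NDUFC2 and UQCRH, and are not counted here. Each gene was read by its brightest probe set, and 86 of the 91 passed a filter on dim signals, 72 of them subunits. The 5 that did not pass were COX6B2, COX7A1, COX8C, the pseudogene COX6A1P1 and ATP5MF, all between 4.12 and 5.91 on every array, where 4 is the floor of the scale. ATP5MF was also listed, together with a noncoding RNA, on a probe set between 13.49 and 13.77.

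MDA-MB-231, an established line from a human breast cancer of the triple-negative kind, was grown in L-15 medium with serum, and all 6 samples carried a stable shRNA, directed at MYO10 in 3 and scrambled in 3. MYO10 is a myosin that moves to the tips of filopodia. Total RNA was hybridised to 1-colour 3' expression arrays, 1 array per sample, and the labels do not say whether the 3 samples of a group were separate cultures, clones or hairpins, so each p-value rests on sample-to-sample spread that may be only technical. In bulk RNA, less RNA per cell and a different mix of cells cannot be told apart.

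The respiratory chain sits in the inner mitochondrial membrane. Complex I takes electrons from NADH and complex II from succinate; ubiquinone carries them to complex III, cytochrome c carries them to complex IV, and complex IV passes them to oxygen. Complexes I, III and IV pump protons, and ATP synthase, called complex V, lets them return and makes ATP. Most subunits are encoded in the nucleus, and some of these have tissue-specific paralogs, while a few core subunits are made from mitochondrial DNA.

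As a check of the labels, MYO10 lay at 11.57, 11.96 and 11.86 with scramble shRNA and at 10.70, 11.39 and 10.64 with MYOSIN10 shRNA (log2 fold change -0.88, limma adjusted p = 0.0303). That call held in 10 of 19 alternatives, with log2 fold changes from -1.12 to -0.55, and ended in the rest. These include the fits without scramble array 1 or 3 or knockdown array 1 or 3 (limma adjusted p = 0.0643, 0.142, 0.137 and 0.143). The highest limma adjusted p over the 19 was 0.243. Here and below a value is log2(signal + 16), arrays are given in the order 1, 2 and 3, fold changes set the knockdown (MYOSIN10 shRNA) over the scramble control, and a call means a limma adjusted p under 0.05 over all 14174 genes tested. The line's markers VIM and CD44 were at or above 14.47 on all arrays, and CDH1 and PGR did not pass the filter, while ESR1 (6.62 to 7.33) and ERBB2 (8.84 to 9.11) did. Markers of other cells were dim, with PTPRC and ALB below the filter and PECAM1 and DES passing it at no more than 7.15, and their part in the results was not tested. Levels are not set against each other between genes, because probe sets differ in how they bind.

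Respiratory chain subunits differed little between the groups. By the brightest probe set of each gene, a single subunit rose, UQCRC2 of complex III, and 0 fell. Thus 1 of the 86 members tested was called, against 1.62% of all genes tested (1.16% higher and 0.459% lower). Of the 72 subunits, 46 had positive and 26 negative log2 fold changes, with a median of 0.017, a lowest value of -0.29 and a highest of 0.35. Over all genes tested the median was 0.0093. An unadjusted p under 0.05 was reached by 11 subunits, which is 15.3% against 14.9% of all genes tested. Of the 11, 9 were higher and 2 lower, which is 12.5% and 2.78% of subunits against 8.49% and 6.39% of all genes. The groups did not overlap for 12 subunits, which is 16.7% against 19.8%, with 10 higher and 2 lower, which is 13.9% and 2.78% against 11.2% and 8.56%. The shares in either direction lie near those of all genes, while lower subunits were fewer; that difference was not tested. The 95% confidence interval lay within a log2 fold change of ±0.5 for 67 of the 72 subunits, against 48% of all genes tested, with a median standard error of 0.0756 against 0.147. The 5 exceptions were ATP5F1D, NDUFA5 and the dim tissue isoforms COX4I2, COX6A2 and COX7B2. These 3 isoforms had standard errors from 0.25 to 0.39, and the other tested subunits were read by bright probe sets. No share was taken among genes of like brightness, so the narrow intervals cannot be told apart from an effect of brightness. The balance of signs was not stable: 35 of 72 subunits were positive without scramble array 2, 36 of 72 with the probe sets of a gene averaged, and 23 of 58 without probe sets of the _s_at and _x_at type, which can bind several transcripts.

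**Figure D1:**
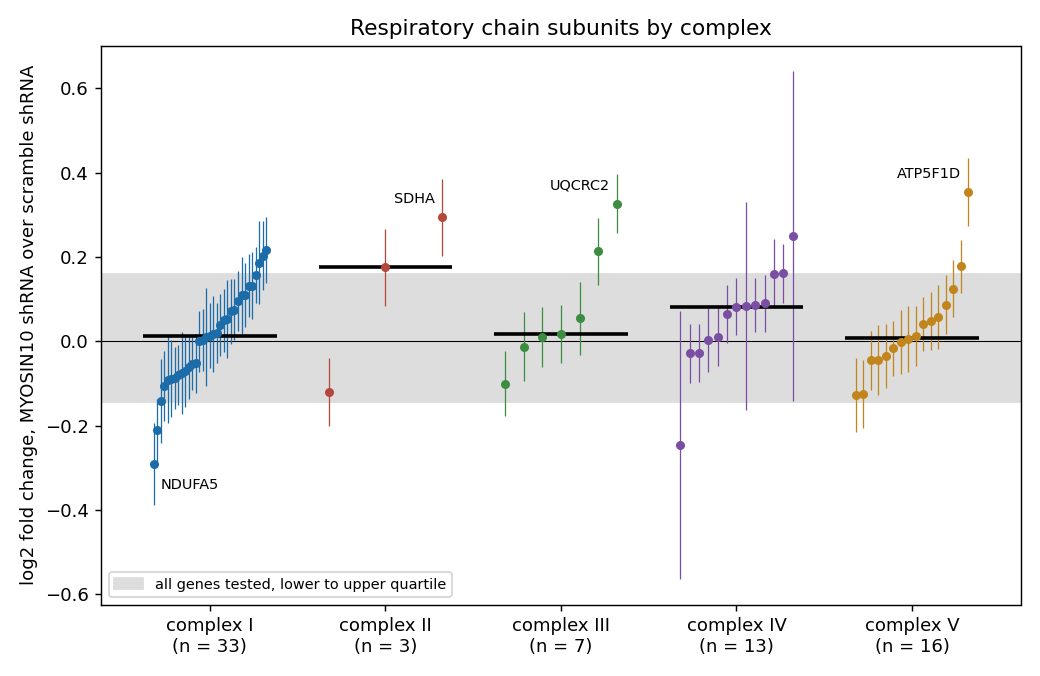
Log2 fold change of each tested subunit (point, with its standard error) by complex, n = 3 arrays a group. Black bars are the medians of the complexes, from 0.0089 (complex V) to 0.18 (complex II), and the grey band runs from the lower to the upper quartile of all genes tested, -0.14 to 0.16.

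Complex I, the largest of the 5, had 33 tested subunits, and 0 were called in either direction, with a median of 0.013 and 20 positive values. Those with an unadjusted p under 0.05 numbered 5, of which NDUFB10, NDUFA12 and NDUFV3 were higher and NDUFA5 and NDUFA2 lower. These 5 were also the only ones without overlap of the groups. Either count is 15.2% of the complex, against 14.9% (unadjusted p) and 19.8% (no overlap) of all genes tested. NDUFA12 was chosen after its values were seen. All 5 are accessory subunits, which surround the catalytic core.

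NDUFA5, a subunit of the peripheral arm, stood at 12.33, 12.28 and 12.12 with scramble shRNA and at 11.76, 12.08 and 12.02 with MYOSIN10 shRNA. The lowest scramble array lay just above the highest knockdown array, and knockdown array 1 was the lowest of all. Its log2 fold change of -0.29 ± 0.098 (SE) did not pass (limma adjusted p = 0.183). NDUFA2, which has a thioredoxin-like fold, stood at 12.74, 12.56 and 12.67 against 12.49, 12.42 and 12.42, a log2 fold change of -0.21 ± 0.074 (SE, limma adjusted p = 0.203), with all knockdown arrays below all scramble arrays. In the other direction, NDUFB10 of the membrane arm stood at 12.01, 12.16 and 11.97 with scramble shRNA and at 12.30, 12.21 and 12.29 with MYOSIN10 shRNA (log2 fold change 0.22 ± 0.078 SE, limma adjusted p = 0.212). A second, dimmer probe set of NDUFB10 gave 0.42 ± 0.10 (SE; limma adjusted p = 0.0805 among all kept probe sets), also without overlap.

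The core subunits that carry electrons overlapped between the groups. NDUFV1, which binds NADH, stood at 0.13 ± 0.080 (SE) and NDUFS1, which holds iron-sulfur clusters, at 0.19 ± 0.099. NDUFS3 and NDUFS7, of the part that hands electrons to ubiquinone, stood at 0.13 ± 0.074 and 0.11 ± 0.091, and NDUFV2, a further iron-sulfur subunit, at -0.087 ± 0.074. Their limma adjusted p ran from 0.415 to 0.652. All 5 tested NDUFS genes had positive values, from 0.019 to 0.19, whereas 7 of 13 NDUFA genes and 4 of 11 NDUFB genes had negative ones. The acyl carrier NDUFAB1, which also serves mitochondrial fatty acid synthesis, lay between 13.78 and 13.99 on all 6 arrays, with overlap.

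The 8 NDUFAF assembly factors, which build complex I without staying in it, had a median of -0.019 and 0 calls. NDUFAF1 had the largest value among them and stood at 10.55, 10.48 and 10.80 with scramble shRNA and at 10.28, 10.18 and 10.30 with MYOSIN10 shRNA (chosen after its values were seen). All 3 knockdown arrays were lower, with a log2 fold change of -0.35 ± 0.10 (SE), and the difference did not pass (limma adjusted p = 0.127). NDUFAF5 had no overlap in the other direction, at 0.17 ± 0.095 (limma adjusted p = 0.448).

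**Figure D2:**
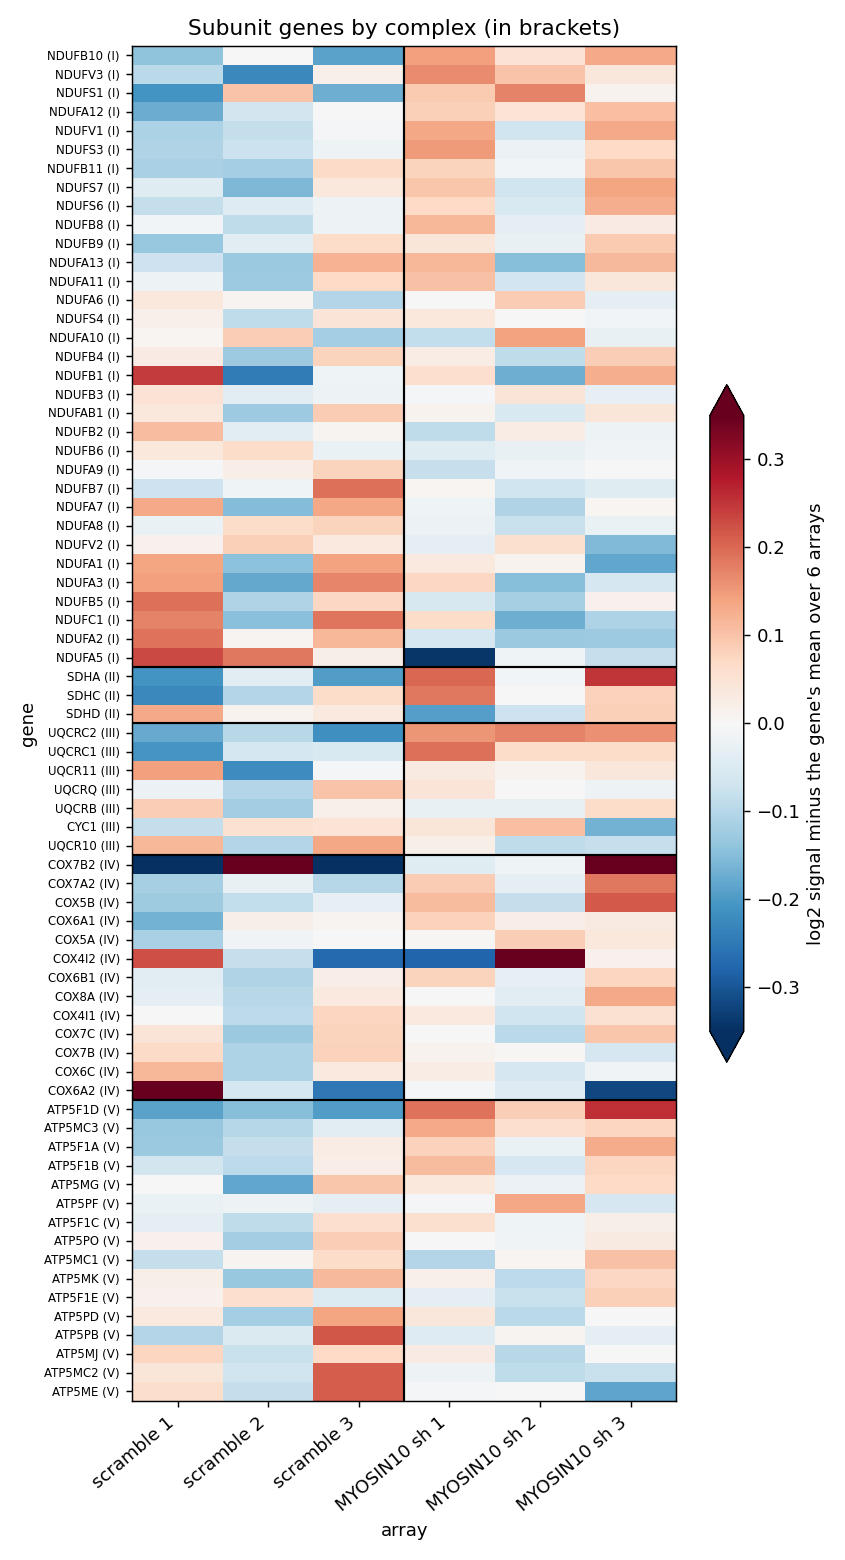
Each tested subunit (rows, complex in brackets, ordered by fold change within a complex) on each of the 6 arrays, coloured by its log2 signal minus its mean over the arrays; colours are clipped at 0.35. Scramble array 2 is blue in most rows, and 28 of the 72 subunits had their lowest value there.

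Complex II, which is also the succinate dehydrogenase of the citric acid cycle, was represented by SDHA, SDHC and SDHD. SDHA, the flavoprotein that oxidises succinate, stood at 11.70, 11.87 and 11.71 with scramble shRNA and at 12.11, 11.90 and 12.16 with MYOSIN10 shRNA. The groups did not overlap, but the arrays numbered 2 lay close to each other. The log2 fold change was 0.29 ± 0.091 (SE) and did not pass (limma adjusted p = 0.142). It passed in 3 of 18 alternatives, with log2 fold changes from 0.24 to 0.43 and a highest limma adjusted p of 0.432 over the 18. Without scramble array 2 it was 0.35 (limma adjusted p = 0.0414), where 6.8% of all genes were called. Without both arrays numbered 2 it was 0.43 (limma adjusted p = 0.00514), where 8.64% of all genes were called. SDHA has pseudogene copies, and a dimmer probe set listed for SDHA and 3 of these copies stood at -0.00046. The membrane anchors differed in sign: SDHC stood at 0.18 ± 0.092 and SDHD at -0.12 ± 0.081, both with overlap (limma adjusted p = 0.412 and 0.533). Among 6 further kept probe sets of SDHC the values ran from -0.30 to 0.22.

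SDHAF2, the assembly factor that attaches FAD to SDHA, rose. It stood at 10.05, 10.28 and 10.08 with scramble shRNA and at 10.61, 10.54 and 10.59 with MYOSIN10 shRNA. Every knockdown array lay above every scramble array, and the log2 fold change was 0.44 ± 0.097 (SE, limma adjusted p = 0.0454). Of the 4 complex II assembly factors, 1 rose, 0 fell and 3 did not pass. The call of SDHAF2 held in 9 of 19 alternatives and ended without any single array other than scramble array 2 (limma adjusted p = 0.0763 to 0.204).

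The promoter of SDHA is shown because the binding motif of NRF1, a transcription factor known for activating respiratory chain genes, repeats in it. The window runs from 250 bases before to 50 bases after the RefSeq start (GRCh38.p14, chr5:218070-218369, plus strand), and capitals mark matches to the NRF1 motif.
SDHA: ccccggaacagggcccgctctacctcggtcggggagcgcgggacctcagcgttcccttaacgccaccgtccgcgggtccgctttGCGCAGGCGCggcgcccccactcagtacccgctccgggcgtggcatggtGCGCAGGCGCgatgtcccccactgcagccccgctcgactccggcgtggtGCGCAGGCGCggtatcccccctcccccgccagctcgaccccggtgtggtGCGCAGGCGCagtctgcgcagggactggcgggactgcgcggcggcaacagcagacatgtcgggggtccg
The 4 matches start 49 bases apart, and 14 of the 27305 promoters in the table, or 0.0513%, hold as many. The promoter was picked for this repeat, so the low share follows from the choice, and a link to the SDHA signal was not tested. A match is a stretch of letters and not a measured site.

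Complex III held the single call among the subunits. UQCRC2, one of the paired core proteins on the matrix side of the complex, stood at 12.26, 12.34 and 12.22 with scramble shRNA (12.28 ± 0.06 SD, n = 3) and at 12.59, 12.61 and 12.60 with MYOSIN10 shRNA (12.60 ± 0.01 SD, n = 3). The knockdown arrays lay close together and clear of all scramble arrays. The message rose 1.25-fold, a log2 fold change of 0.33 ± 0.070 (SE, limma adjusted p = 0.0424). Among all kept probe sets the same probe set was not called (limma adjusted p = 0.0555). The second probe set of UQCRC2 gave 0.25 ± 0.083 (limma adjusted p = 0.212 among all kept probe sets) and a dim one -0.048 ± 0.37. The call by gene held in 9 of 19 alternatives and ended without any single array other than scramble array 2 (limma adjusted p = 0.0906 to 0.182).

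Its partner UQCRC1, the other core protein, did not pass. UQCRC1 stood at 11.80, 11.94 and 11.95 with scramble shRNA and at 12.19, 12.06 and 12.07 with MYOSIN10 shRNA, again without overlap, with a log2 fold change of 0.21 ± 0.080 (SE, limma adjusted p = 0.23). The other 5 tested subunits of the complex lay between -0.10 (UQCR10) and 0.054 (UQCR11), all with overlap. They include CYC1, the cytochrome c1 subunit, at -0.013 ± 0.081, and the small subunits UQCRB at 0.0098 and UQCRQ at 0.017. The median of the 7 was 0.017, and 2 of 7 had an unadjusted p under 0.05, which is 28.6% against 14.9% of all genes tested. The same 2 had no overlap, against 19.8% of all genes tested.

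The promoters of the core pair are shown side by side because the genes encode paired proteins (GRCh38.p14; UQCRC2 chr16:21953111-21953410, plus strand; UQCRC1 chr3:48609597-48609896, minus strand, printed 5′ to 3′ along the gene). Capitals mark matches, on either strand, to the NRF1 motif and to a motif of YY1.
UQCRC2: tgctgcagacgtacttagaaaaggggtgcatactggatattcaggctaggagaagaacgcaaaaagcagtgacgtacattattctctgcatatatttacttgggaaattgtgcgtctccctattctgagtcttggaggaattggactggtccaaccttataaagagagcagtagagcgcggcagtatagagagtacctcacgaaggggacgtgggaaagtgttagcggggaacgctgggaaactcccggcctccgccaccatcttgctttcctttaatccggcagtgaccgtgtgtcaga
UQCRC1: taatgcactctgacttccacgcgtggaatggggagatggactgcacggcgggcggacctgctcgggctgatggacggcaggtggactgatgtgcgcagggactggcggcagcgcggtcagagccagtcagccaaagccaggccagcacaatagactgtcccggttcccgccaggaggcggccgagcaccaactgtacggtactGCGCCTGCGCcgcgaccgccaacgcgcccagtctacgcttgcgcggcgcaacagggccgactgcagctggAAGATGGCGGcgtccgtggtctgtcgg
UQCRC1 holds 1 match to each motif, the YY1 match starting 23 bases after the start site, and no match of either was in the UQCRC2 window.

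**Figure D3:**
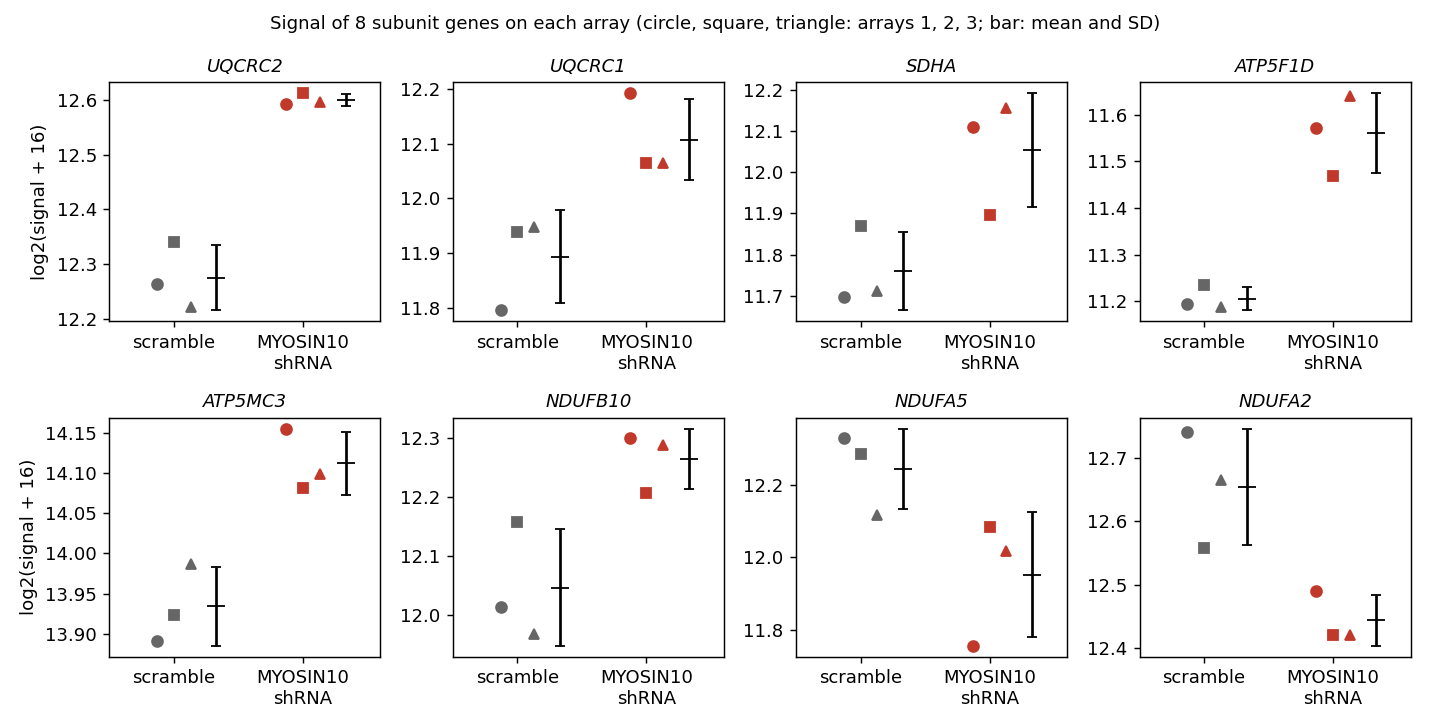
Signal of 8 subunit genes on each array, grey for scramble shRNA and red for MYOSIN10 shRNA, with the mean and SD of 3 arrays beside the points; the vertical axes differ and do not start at 0. All 8 are among the 12 of 72 subunits without overlap of the groups (16.7%, against 19.8% of all genes tested). The separation in the panels thus follows from which genes are shown. UQCRC2 alone was called.

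Complex IV, cytochrome c oxidase, had 13 tested nuclear subunits, and 0 were called. Its median of 0.083 was above that of all genes tested, and 10 of 13 values were positive. The groups did not overlap for COX5A and COX6A1, both higher, which is 15.4% against 19.8% of all genes tested. An unadjusted p under 0.05 was reached by 1 subunit, or 7.69%, against 14.9% of all genes tested. The gene with that p, COX7A2, stood at 13.97, 14.06 and 13.99 with scramble shRNA and at 14.18, 14.05 and 14.27 with MYOSIN10 shRNA. Knockdown array 2 lay among the scramble arrays, and the log2 fold change was 0.16 ± 0.071 (SE, limma adjusted p = 0.317). COX5B and COX5A, which surround the catalytic core, stood at 0.16 ± 0.082 and 0.086 ± 0.064 (limma adjusted p = 0.399 and 0.588), and COX4I1, the regulatory subunit that responds to ATP, stood at 0.011 ± 0.069. Without _s_at and _x_at probe sets the median of the complex was -0.028.

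Several subunits of complex IV come as paralogs used in different tissues. The ubiquitous forms COX4I1, COX6A1, COX6B1, COX7A2, COX7B and COX8A all passed the filter, at or above 13.17 on every array, with log2 fold changes from -0.028 to 0.16. Of the paralogs known from muscle, lung or testis, COX6B2, COX7A1 and COX8C did not pass the filter, and COX4I2, COX6A2 and COX7B2 passed it with values between 5.72 and 7.36. COX7B2 stood at 6.06, 7.36 and 5.72 with scramble shRNA and at 6.46, 6.49 and 6.94 with MYOSIN10 shRNA, so that the highest and the lowest array were both scramble arrays. None of these 3 has a firm fold change, with standard errors from 0.25 to 0.39. COX7A2L, which helps complexes III and IV join in supercomplexes, stood at 0.071 ± 0.077 (limma adjusted p = 0.738).

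Complex V had 16 tested subunits with a median of 0.0089 and 0 calls. ATP5F1D, the delta subunit of the rotor stalk that links the catalytic head to the membrane ring, came nearest. It stood at 11.20, 11.24 and 11.19 with scramble shRNA and at 11.57, 11.47 and 11.64 with MYOSIN10 shRNA. The scramble arrays lay within 0.05 of each other and all knockdown arrays above them. The log2 fold change was 0.35 ± 0.081 (SE), the largest of the 72 subunits, and the limma adjusted p was 0.0546; it passed in 5 of 18 alternatives. A second probe set of ATP5F1D, which is dimmer, gave 0.11.

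The catalytic genes of the head overlapped between the groups. ATP5F1A and ATP5F1B, which form the catalytic sites, stood at 0.12 ± 0.068 and 0.087 ± 0.070, and ATP5F1C, the central shaft, at 0.041 ± 0.064 (limma adjusted p = 0.425, 0.621 and 0.82). The 3 genes ATP5MC1, ATP5MC2 and ATP5MC3 encode the same mature c subunit of the ring. They gave 0.005 ± 0.079, -0.12 ± 0.080 and 0.18 ± 0.062. ATP5MC3 alone of them had no overlap, with 13.89, 13.92 and 13.99 against 14.15, 14.08 and 14.10, and did not pass (limma adjusted p = 0.199). Its other 2 kept probe sets gave 0.12 and 0.10. The inhibitor ATP5IF1, which blocks ATP hydrolysis by the enzyme, stood at -0.075 ± 0.084.

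Probe sets of the same gene often differed in sign. In 25 of 44 members with more than 1 kept probe set, the next brightest agreed in sign with the brightest, and over all 71 dimmer probe sets 38 had the same sign. Only 5 of the 71 had the opposite sign with an unadjusted limma p under 0.05 on that probe set or the brightest. Agreement in sign was not counted over all genes, so it is not a trait of these members. Among these 71, 8 were lower and 4 higher at an unadjusted p under 0.05, which is 11.3% and 5.63%, against 7% and 5.88% of the 13028 dimmer probe sets of all genes. ATP5MG, a membrane subunit of ATP synthase, showed the clearest case. Its 3 brightest probe sets, all of the _x_at type, gave 0.057, 0.053 and 0.022, while the dimmest fell, from 12.45, 12.34 and 12.55 to 11.94, 12.07 and 11.84. That probe set, which has no suffix for shared binding, had a log2 fold change of -0.50 ± 0.088 (SE; limma adjusted p = 0.0203 among all kept probe sets), and it was 1 of 71 dimmer probe sets of the members to be called, or 1.41%, against 0.929% of those of all genes.

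Similar splits were seen in other members. UQCRB gave 0.0098 and 0.019 on its brighter probe sets and -0.44 ± 0.11 on a dimmer one (10.36, 10.04 and 10.20 against 9.76, 9.65 and 9.87; limma adjusted p = 0.0977). NDUFV3, of the NADH-oxidising part of complex I, gave 0.20 ± 0.084 on one probe set and -0.35 ± 0.12 on the other, both without overlap. For ATP5F1E, the epsilon subunit of the head, the brightest probe set gave -0.016. Its dim one stood at 7.10, 7.34 and 6.72 against 6.20, 5.19 and 4.86, which is -1.63 ± 0.36 (limma adjusted p = 0.055) from values near the floor. ATP5MJ, COX7B and NDUFAF4 had small negative values on the brightest probe set and -0.36, -0.51 and -0.55 on a dimmer one (ATP5MJ, NDUFAF4 and ATP5F1E chosen after their values were seen). Where the probe sets lie along these transcripts was not analysed here.

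**Figure D4:**
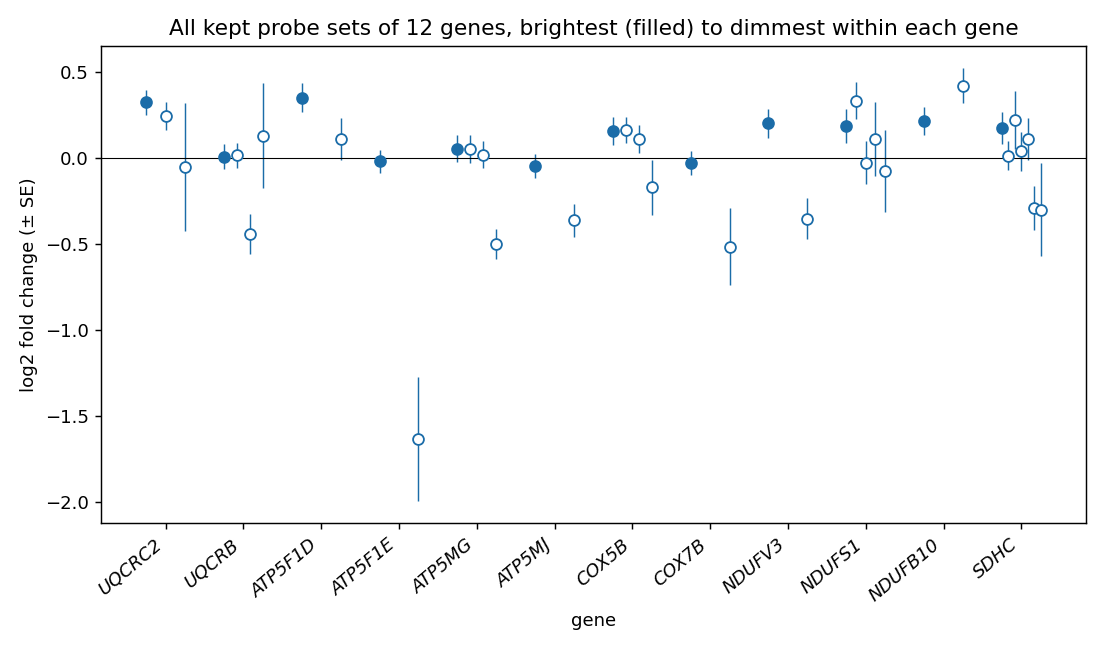
Log2 fold change with its standard error for every kept probe set of 12 member genes, from the brightest (filled) to the dimmest (open) within each gene, fitted among all kept probe sets. The dimmest probe sets of ATP5MG (-0.50) and ATP5F1E (-1.63) lie far below the brightest ones of the same genes.

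Scramble array 2 was low across the complexes. The median subunit lay 0.085 below its mean over the 6 arrays there, and 77.8% of subunits were below their mean, against a median deviation of -0.016 and 53.4% for all genes tested. On that array the medians of complexes I, III, IV and V ran from -0.10 to -0.075. MYOSIN10 shRNA array 2 was also on the low side, with a median subunit deviation of -0.022 and 66.7% of subunits below their mean, and the other 4 arrays lay between -0.0084 and 0.038. The part of this array in the results was not tested beyond leaving it out. Without it, the median of complex III was -0.031, and 4 members were called: UQCRC2 (0.36), ATP5F1D (0.37) and SDHA (0.35) higher and NDUFAF1 (-0.42) lower, against 6.8% of all genes in the same fit.

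**Figure D5:**
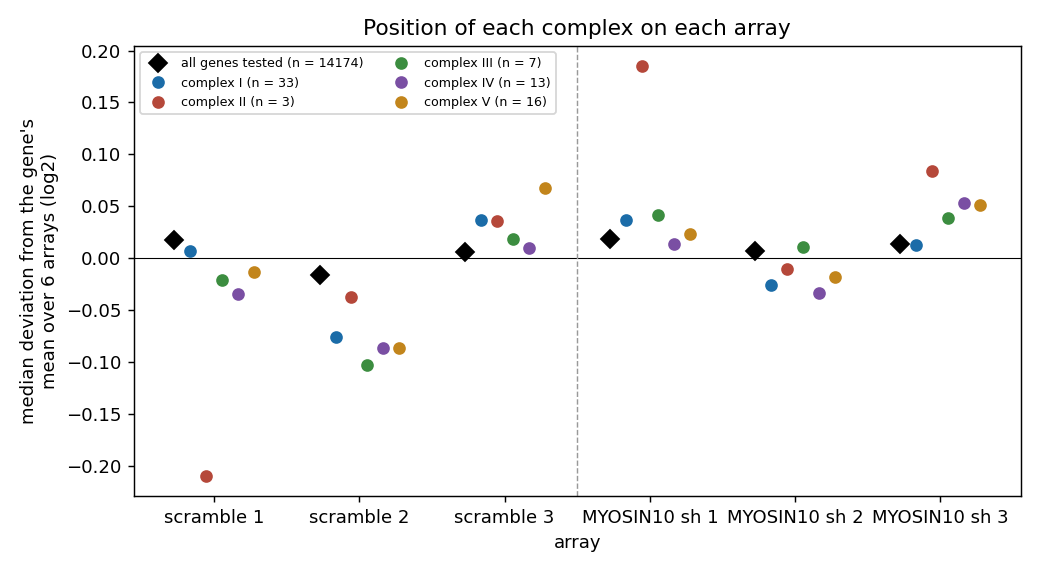
Median deviation of the subunits of each complex (circles) and of all genes tested (diamonds) from each gene's mean over the 6 arrays, by array. Scramble array 2 is the lowest for complexes I, III, IV and V, and complex II, with 3 genes, moves most.

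Subunits encoded in mitochondrial DNA join the nuclear ones in complexes I, III, IV and V. Of 13 such genes listed, 7 were tested, from complexes I, IV and V, and the other 6 were not analysed here. With limma, 0 of the 7 had an adjusted and 0 an unadjusted p under 0.05. COX1 and COX2, the catalytic subunits of complex IV, gave 0.095 ± 0.076 (SE) on the probe set of COX1 and 0.13 and 0.072 on those of COX2, and ND4 of complex I gave -0.027 and 0.020. A dimmer probe set of ATP6, the proton channel of complex V, stood at -0.67 ± 0.21 (limma adjusted p = 0.167), and its bright one at 0.059.

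Among other genes of mitochondrial energy metabolism, SDHAF2 and PHB2 were the called ones. PHB2, a prohibitin that scaffolds the inner membrane, stood at 12.29, 12.72 and 12.35 with scramble shRNA and at 13.70, 13.69 and 13.73 with MYOSIN10 shRNA (log2 fold change 1.25 ± 0.10 SE, limma adjusted p = 0.000146), and it was 1 of 22 tested genes of inner membrane organisation and carriers. In every other list 0 genes were called: 19 assembly factors of complex I, 6 of complex III, 23 of complex IV and 5 of complex V, 20 genes of mobile carriers and electron entry, 16 of the citric acid cycle and pyruvate dehydrogenase, 75 of the mitochondrial ribosome and 16 regulators of mitochondrial biogenesis. At an unadjusted p under 0.05 these lists had 1, 2, 3, 4, 2, 4, 5 and 2 genes in that order, which runs from 5.26% (complex I assembly factors) to 80% (the 5 of complex V), against 14.9% of all genes tested. Their medians ran from -0.064 (complex V assembly factors) to 0.089 (citric acid cycle). GPD2, which passes electrons from glycerol 3-phosphate to ubiquinone, stood at 0.35 (limma adjusted p = 0.0644) and COQ2, an enzyme of ubiquinone synthesis, at -0.32 (0.0857), both chosen after their values were seen.

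Promoter letters, which the choice by symbol did not use, were searched for motifs of factors known from respiratory chain genes; most subunit promoters held none of a given motif, and no difference in share was tested. A promoter window of 300 bases was found in the RefSeq table (GRCh38.p14) for 64 of the 76 subunits, whether or not they passed the filter. The NRF1 motif was in 16 of them, or 25%, against 10.8% of the promoters of genes tested and 6.28% of all promoters in the table. It was in 6 of 31 complex I promoters, 3 of 5 of complex III, 1 of 13 of complex IV and 4 of 13 of complex V, and in both of complex II. The complex IV promoter with it was that of COX8C, which did not pass the filter and was not tested. CCGGAAGT, bound by ETS factors such as GABPA, was in 14.1% against 7.93% of genes tested, the YY1 motif in 9.38% against 2.51%, and TGACGTCA, bound by CREB, in 6.25% against 3.05%. Both strands were searched, and matches of the NRF1 motif include its palindromic form, found in 6.25% and 2.15%.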

How the data were processed

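Each array was summarised with MAS5, per the submitters' processing notes; version and scaling target: not given in the sources used here. Log2 signals were deposited by the authors; the scale was inferred, since the mean of the linear signals with 2% trimmed at each end was 500.07 to 500.08 on every array. They were made linear, 16 was added and log2 taken again, which understates fold changes of dim genes. Probe sets at or above the 40th percentile of the array in 3 or more of the 6 arrays were kept. The brightest kept single-symbol probe set stood for its gene. The test was limma 3.58.1 under R 4.3.3 (lmFit, eBayes with trend, two-sided, Benjamini-Hochberg over 14174 genes), tested on simulated data. Arrays have no read depth; 3 per group limit the precision. Named members were those called, the 3 smallest p-values per complex, core subunits, paralogs and genes whose probe sets disagree in sign. Members and lists were chosen with earlier results of these data known. Same-numbered arrays correlated at 0.0587, 0.163 and 0.0397 (deviations from group means), and differently numbered ones at -0.111 to 0.0655. An array numbered 2 with arrays 1 and 3 of the other group gave -0.111 to -0.0721. A part shared by the arrays numbered 2 was thus not excluded. The labels do not call the numbers pairs, and the main fit did not use them. Alternatives are in the closing section.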

Additional observations from a re-analysis of the deposited data

How the results depend on the processing

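The number of genes called among all tested was 229, and it was 126 without the filter on dim probe sets (19775 genes tested), 111 with all kept probe sets of a gene averaged, 7 without a variance trend, 791 with array weights, 611 with the replicate number as a block and 1224 without both arrays numbered 2, and from 66 to 964 when 1 array was left out. Called members, 1 in the fit as reported, numbered 0 without the filter, with arrays centred on their median or without a variance trend. They numbered 2 with a filter at the 60th percentile (2.44% of members against 2.49% of all genes in the same fit). With array weights they numbered 4 (4.65% against 5.58%), and with the replicate block 2, UQCRC2 and ATP5F1D (2.33% against 4.31%). Without both arrays numbered 2 they numbered 5 (5.81% against 8.64%). With 1 array left out they numbered 4 without scramble array 2 (4.65% against 6.8%) and 0 without each of the others. With the mean of probe sets or without _s_at and _x_at probe sets the single member called was another gene, ATP5F1E (-0.82) and ATP5MG (-0.50), both lower. That is 1.16% of members against 0.783% of all genes, and 1.45% against 1.55%. Medians moved by more than the spread between arrays without _s_at and _x_at probe sets for complexes I (-0.077), II (-0.0033) and IV (-0.028), with the mean of probe sets for complex II (-0.0024), and without both arrays numbered 2 for complex III (-0.033), which ran from -0.031 to 0.065 with 1 array left out. Of the named members with values beyond 1 SE, the direction turned without _s_at and _x_at probe sets for COX5A (-0.039), COX5B (-0.17), NDUFS7 (-0.43) and NDUFV3 (-0.35), and with the mean of probe sets for NDUFS7 (-0.16), NDUFV3 (-0.073) and SDHC (-0.0024), where other probe sets enter; none of these was called. Positive subunits were 46 of 72, and 40 with quantile normalization, 39 with array weights, 36 with averaged probe sets, 23 of 58 without _s_at and _x_at probe sets, and 35 to 48 with 1 array left out. The planned move of 1 NDUFA gene to complex IV was not run. Dim paralogs near the floor have no firm size.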

Other observations

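Among the 5 assembly factors of complex V, 2 were higher and 2 lower at an unadjusted p under 0.05. ATPAF2, which helps build the catalytic head, stood at 7.31, 7.61 and 7.13 with scramble shRNA and at 8.01, 7.97 and 7.87 with MYOSIN10 shRNA, and TMEM242 at 7.89, 8.27 and 7.46 against 8.60, 8.70 and 8.41. FMC1 was on the other side, with 11.33, 11.03 and 11.20 against 10.91, 10.88 and 10.80, and TMEM70, which acts in the assembly of the membrane ring, had 12.34, 12.26 and 12.26 against 12.03, 12.10 and 12.07. None of the 4 genes had overlap between the groups, as was so for 19.8% of all genes tested, and none passed over all genes tested, with log2 fold changes of 0.60, 0.69, -0.32 and -0.22 (limma adjusted p = 0.132, 0.115, 0.128 and 0.165). Of the 23 complex IV assembly factors, 17 had negative values, with a median of -0.058, and 6 (26.1%) lay without overlap below the scramble arrays, against 8.56% of all genes tested; none was called, 3 had an unadjusted p under 0.05 with limma, and the difference in share was not tested.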
